A study of Mus musculus with 4 samples.

Results

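The 44 genes described here act in cell division. The list was given by name and not by a cut on measured values, but with earlier results of these data known. It comprises 14 genes of S phase, in which the genome is copied, and 30 genes of the G2 phase and mitosis, called mitosis genes below. All 44 were present in both gene matrices, among 55253 genes that the matrices share by symbol. Expression had been measured by droplet RNA sequencing in 2 pooled libraries of CD45+ cells, that is, hematopoietic cells, of the collagenase-digested mouse mammary gland. They are told apart here as earlier and later, by the years in their titles. In each, cells of different origin carried hash tags, antibodies bearing a DNA barcode that names the sample. The earlier library held samples named Nulliparous (never pregnant), Gestation (pregnant) and Lactation (nursing), and the later library held Gestation, Lactation, Involution, Regression, Balb/c (an inbred strain) and GF. A further tag, HT2, was used in both libraries. It is named Germ-free in the deposited sheets of both libraries. The title of the earlier library, however, lists involution and no germ-free sample, so the tag is called HT2 here. The later title and sheet also name Nulliparous, but its tag had 1 count in the cells of that library and was not used. Neither the animals' ages nor how many of them shared a tag was stated in the labels, and the same holds for the strain behind the other names and for the stage at which the Balb/c and GF glands were taken.

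Each name thus had 1 sample per library, and p-values measure only the spread between these hash-defined samples, which may be technical. After filtering and tag assignment 15287 cells of the earlier library and 14612 of the later one were analysed. The median number of UMIs per cell (unique molecular identifiers, each standing for 1 counted RNA molecule) lay between 1193.5 and 2040 in the earlier samples and between 2405.5 and 3173 in the later ones. The 2 libraries shared 139 cell barcodes, 0.643% of the earlier and 0.656% of the later cells that passed the filters. The later Lactation tag was weak, with 16368 tag counts against 83785 to 343172 for the other tags used in that library, and gave 783 cells. Lineages were set apart by the counts of single genes that are not among the 44: Cd3e for T cells, Cd8b1 for CD8 T cells, Ncr1 for NK cells and related innate lymphocytes, Itgae (the CD103 integrin, which holds lymphocytes in epithelium), Ms4a1 (CD20) for B cells, Jchain for plasma cells, C1qa for macrophages and Xcr1 for cross-presenting dendritic cells (cDC1). With the T cell list used for every Cd3e gate, each gate's own marker list stood above the other lymphoid and myeloid lists, with these exceptions. NK genes exceeded T cell genes in the T cells with Itgae or Ncr1 and, in the earlier library, in those without Itgae or Cd8b1. In the CD8 gate, Cd8a alone was at 5.13 and 5.16 UMIs per 10000 UMIs in the earlier and later library. That was below the NK list there, at 23.3 and 9.31. The B cell list summed to 33.7 and 39.9 UMIs per 10000 UMIs in the B gate of the earlier and later library, the macrophage list to 70.4 and 81.4 in the macrophage gate, and the cDC1 list to 36.8 and 33.6 in the cDC1 gate. Milk protein genes, which these cells do not make, summed to 34.6 and 81.4 in the B gate and to 13.0 and 79.4 in macrophages, and the part of free RNA in the results was not tested.

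A dividing cell copies its DNA in S phase and separates the copies in mitosis, and each phase has its own gene program. In S phase the Mcm proteins form the helicase that opens the DNA, Pcna is the clamp that holds the polymerase, and Rrm1, Rrm2, Tyms and Tk1 supply nucleotides. In mitosis Cdk1 with cyclin B drives entry, kinesins such as Kif11 and Kif23 act on the spindle, Bub1 and Spc24 act at the kinetochore, and Cdc20 and Ube2c act in the complex that marks cyclin B for destruction. Mki67 (the Ki-67 antigen) coats mitotic chromosomes and is the standard marker of cycling cells, and Top2a untangles sister DNA. Resting B and T cells stand outside the cycle until activated, whereas tissue macrophages and dendritic cell precursors can divide in place.

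The 2 programs are known for different promoter elements, CHR elements with CCAAT boxes in mitosis genes and E2F sites in S-phase genes, and the promoter sequences show this division among the members. RefSeq promoters (assembly GRCm38.p6, 250 bases before to 50 after the start) were matched for 37 of the 44 genes, with 2 promoters each for Mcm7 and Uhrf1. On either strand, CHR letters (TTTGAA or TTCGAA) occurred in 20 of 24 mitosis promoters (83.3%), in 2 of 15 S-phase promoters (13.3%) and in 19.2% of all 32851 promoters of that length. E2F letters (TTTCCCGC, TTTCGCGC, TTTGCCGC or TTTGGCGC) occurred in 7 of 15 S-phase promoters (46.7%), in 2 of 24 mitosis promoters (8.33%) and in 2.26% of all. CCAAT was common to both groups, in 87.5% of mitosis and 80.0% of S-phase promoters against 37.4% of all, and 79.2% of the mitosis promoters held CCAAT and CHR letters together. A match describes letters in a window and is not evidence of binding. The 120 bases before the start are shown for 3 mitosis genes and 3 S-phase genes, chosen after inspection to show both arrangements and 1 S-phase promoter without E2F letters, Pcna. Capitals mark matches on either strand (ATTGG is CCAAT read from the other strand, TTCAAA is TTTGAA, and E2F matches on opposite strands can overlap). The positions are chr11:99024190-99024309 (minus strand) for Top2a, chr10:69352913-69353032 (minus) for Cdk1, chr19:37376262-37376381 (plus) for Kif11, chr1:128359706-128359825 (minus) for Mcm6, chr19:38930870-38930989 (plus) for Hells and chr2:132253181-132253300 (minus) for Pcna.
Top2a: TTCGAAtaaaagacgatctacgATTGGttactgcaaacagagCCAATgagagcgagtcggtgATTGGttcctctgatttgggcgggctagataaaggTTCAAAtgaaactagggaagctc
Cdk1: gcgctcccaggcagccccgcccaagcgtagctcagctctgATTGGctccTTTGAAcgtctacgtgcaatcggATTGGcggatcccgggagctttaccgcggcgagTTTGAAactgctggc
Kif11: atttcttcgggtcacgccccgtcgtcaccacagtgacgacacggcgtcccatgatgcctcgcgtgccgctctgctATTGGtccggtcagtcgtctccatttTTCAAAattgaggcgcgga
Mcm6: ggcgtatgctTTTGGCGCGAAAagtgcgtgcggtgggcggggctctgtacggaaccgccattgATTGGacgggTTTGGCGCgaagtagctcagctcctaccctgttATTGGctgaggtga
Hells: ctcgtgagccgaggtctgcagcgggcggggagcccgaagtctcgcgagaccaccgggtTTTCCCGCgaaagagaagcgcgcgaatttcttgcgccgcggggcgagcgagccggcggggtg
Pcna: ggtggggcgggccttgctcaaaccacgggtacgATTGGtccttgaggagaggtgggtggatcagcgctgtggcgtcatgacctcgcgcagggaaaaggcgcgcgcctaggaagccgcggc

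Cycling cells were counted as those with at least 2 UMIs of Mki67 and Top2a together, and the level of the 44 genes was taken as their summed UMIs per 10000 UMIs. In the earlier library the share of cycling cells was 2.38% of 4408 cells in Gestation (95% exact binomial interval 1.95 to 2.88), 3.43% of 2826 in HT2 (2.79 to 4.17), 4.67% of 5632 in Nulliparous (4.13 to 5.25) and 10.2% of 2421 in Lactation (8.99 to 11.4). The earlier Lactation sample stood above the other 3, with an interval that met none of theirs. In the later library the 7 shares ranged from 3.01% in Regression (2.36 to 3.78) to 7.28% in Lactation (5.56 to 9.33), with a median of 4.96%. The later Gestation share was 5.95% (5.17 to 6.81) and overlapped that of later Lactation. Intervals and counts of UMIs cover counting error only.

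The summed level of the 44 genes followed a similar order. It was 8.68 UMIs per 10000 in earlier Gestation, 11.9 in HT2, 16.3 in Nulliparous and 24.7 in Lactation. In the later library it ran from 11.7 in Regression to 19.7 in Gestation, with 19.1 in Lactation. Cells of earlier Gestation were also the shallowest, with a median of 1193.5 UMIs against 2040 in earlier Lactation. After thinning to 1000 UMIs per cell, which left out the shallower cells (1465 of 4408 in Gestation, 822 of 2826 in HT2, 1562 of 5632 in Nulliparous and 236 of 2421 in Lactation), the cycling shares were 1.66%, 2.79%, 3.39% and 6.27% in the same order for the earlier samples, so among these cells earlier Lactation was again highest and earlier Gestation lowest. Of the 44 genes, 33 had their highest level of all 11 samples in earlier Lactation and 36 their lowest in earlier Gestation. Later Lactation held the highest level of 7 genes, all of them mitosis genes, among them Cdk1, Kif11 and Aurka, a spindle pole kinase. Some genes departed from this order. Stmn1 encodes a protein that takes microtubules apart, and its lowest level was 0.543 in Balb/c and its highest 2.85 in earlier Lactation. Pcna was lowest in earlier Gestation at 0.754 and highest in later HT2 at 1.75.

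**Figure D1:**
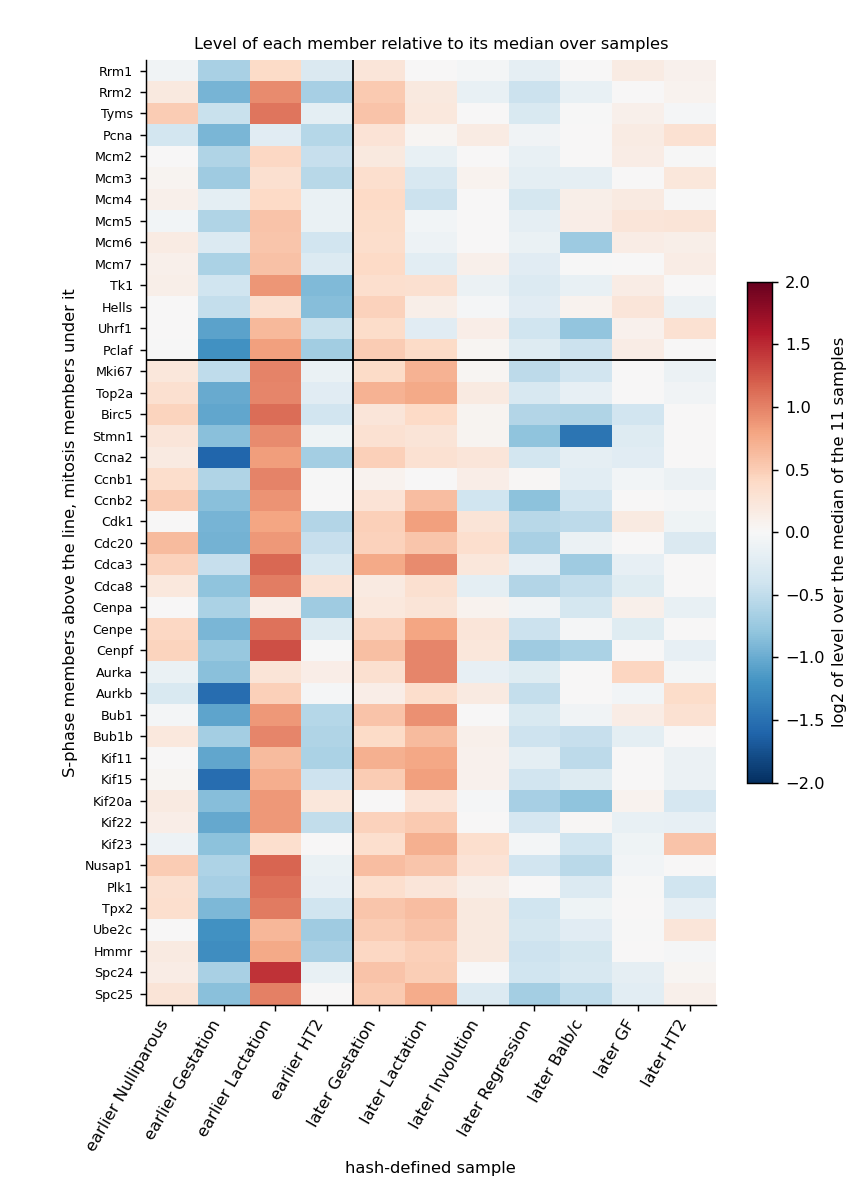
Heat map of the 44 genes (rows, S-phase genes above the line and mitosis genes below it) in the 11 hash-defined samples (columns), coloured by the log2 of the UMIs per 10000 UMIs over the gene's median across the samples, from -2 to 2. Most rows are highest in earlier Lactation and lowest in earlier Gestation.

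Within every sample the cycling cells carried more of the other 42 genes than the remaining cells. The cells were selected by Mki67 and Top2a, so this is a description of what else they expressed and has no test. All 42 were higher in cycling cells in each of the 4 earlier and 7 later samples. Cycling cells were also deeper, with a median of 3668 UMIs against 1319 in the earlier library and 7296.5 against 2734 in the later one, and levels below are therefore per 10000 UMIs. The mitosis genes stood highest, with a median ratio of cycling to other cells of 52.3 in the earlier and 57.8 in the later library. Ccna2, cyclin A2, had the largest ratio at 179 and 191. Cenpa, the centromeric histone, had the smallest of them at 7.66 and 5.99.

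The S-phase genes had much smaller ratios, with medians of 6.96 and 7.36. Pcna was 3.98 and 4.03 times as high in cycling cells and Mcm2, a helicase subunit, 3.68 and 4.06 times. Pclaf and Rrm2 stood apart from the other S-phase genes. Pclaf, a Pcna-binding factor, had ratios of 71.7 and 103, and Rrm2, the regulated subunit of ribonucleotide reductase, had 69.3 and 54.6. Both lay near or above the median of the mitosis genes, 52.3 in the earlier and 57.8 in the later library. Other cells kept detectable Pcna, with UMIs in 11.5% of them in the earlier and 29.4% in the later library, whereas Ccna2 was seen in 0.144% and 0.266%. Cells with at least 5 S-phase UMIs numbered 761 and 969, and 23.9% and 37.7% of them had no UMI of Mki67 or Top2a, so a count by those 2 genes leaves out cells with S-phase UMIs.

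Cell cycle genes outside the 44 were read from lists chosen with earlier results known. Of 29 further S-phase genes, all were higher in cycling cells in both libraries, with median ratios of 7.50 and 7.25. The 32 further G2 and mitosis genes were likewise all higher, with medians of 22.8 and 20.0. Among 18 genes that control entry from G1 the medians were 1.79 and 1.66, with Foxm1, the activator of the mitotic program, at 45.8 and 33.2. Ccnd2, a D-type cyclin, was lower in cycling cells in every sample, with ratios of 0.512 and 0.466. The 11 inhibitors split: Btg1, an antiproliferative factor, was at 0.384 and 0.408 and Cdkn1b (p27) at 0.670 and 0.625, while Cdkn2c (p18) was at 5.94 and 5.40. Cdkn2a had the largest ratio of them in both libraries, 20.3 and 10.5, and Cdkn2b the smallest in the later one, 0.186.

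**Figure D2:**
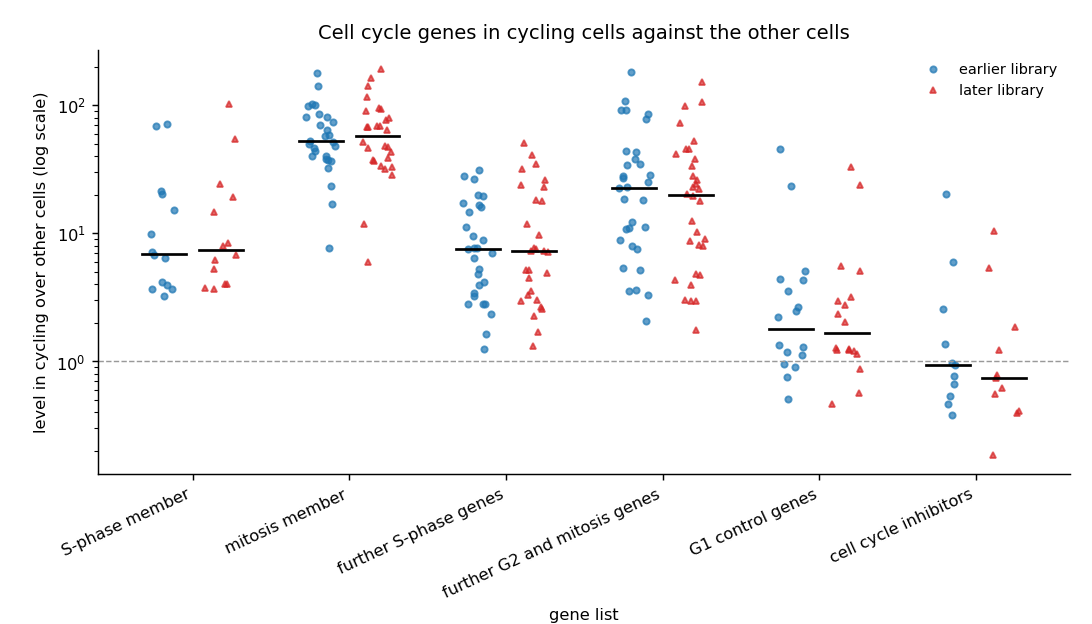
Ratio of UMIs per 10000 UMIs in cycling cells to that in the other cells (log axis) for each gene, by gene list and library. Points are genes, bars are list medians and the dashed line marks equal levels; Mycn, at 0 in earlier cycling cells, is not drawn. The median of mitosis genes lies near 50 and that of S-phase genes near 7, with Pclaf and Rrm2 far above it. The inhibitor medians lie near 1, with Cdkn2a as high as 20.3.

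By lineage, the median share of cycling cells over samples was highest in cDC1, at 17.5% over 7 samples, and lowest in B cells, at 0.287% over 11. The cDC1 were also among the deeper cells, and in the earlier library their rank did not hold at equal depth. At 1000 UMIs per cell the median over earlier samples was 5.44% in cDC1 and 8.37% in CD8 T cells. In the later library it was 4.76% in cDC1 over 3 samples and 3.13% in CD8 T cells over 7. The summed member level was lower in cDC1 than in CD8 T cells in both libraries. Its medians were 23.8 and 34.7 UMIs per 10000 in the earlier and 18.5 and 23.9 in the later library. Among samples with at least 20 gated cells, the cDC1 share was 20.0% of 40 cells in earlier Gestation, 12.9% of 62 in HT2, 28.2% of 39 in Lactation and 11.8% of 51 in Nulliparous, and in the later library 35.0% of 20 cells in GF, 17.5% of 63 in HT2 and 15.4% of 26 in Involution. The exact intervals were wide, for example 15.4 to 59.2 for GF. B cells gave 3 cycling cells of 1138 in the earlier and 30 of 2675 in the later library. Their share was 0 in 2 earlier samples, of which Nulliparous with 592 cells allows up to 0.507%, and in 3 later ones. CD8 T cells ranged from 4.30% in later GF to 15.5% in earlier Lactation, macrophages from 0.877% in earlier Lactation to 19.1% in Balb/c, and plasma cells from 3.92% in earlier HT2 to 14.3% in earlier Gestation. The order of lineages changed from sample to sample. In earlier Lactation macrophages lay below B cells, at 0.877% and 4.55%, and in Nulliparous cDC1 lay below T cells with Itgae, at 11.8% and 14.1%.

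**Figure D3:**
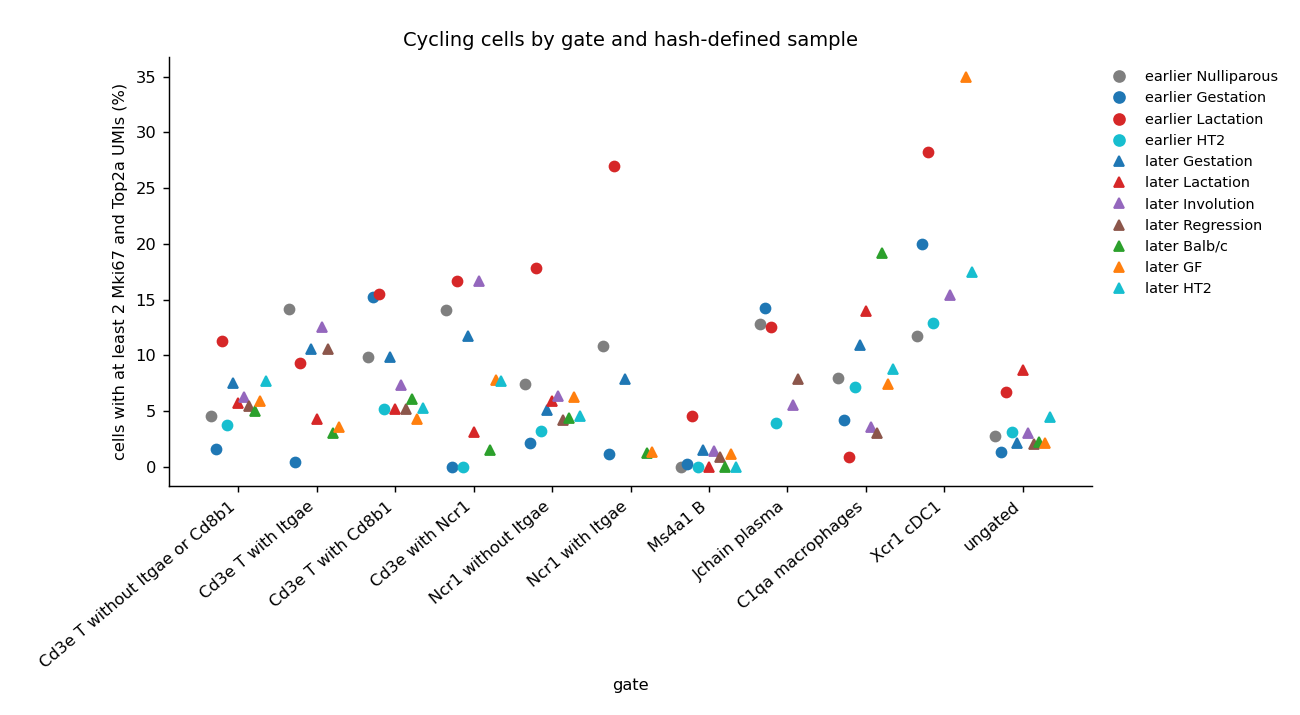
Percent of cells with at least 2 UMIs of Mki67 and Top2a together, by gate; each point is 1 hash-defined sample with at least 20 cells in the gate, circles for the earlier and triangles for the later library. The B cell points lie between 0 and 4.55%, and the cDC1 points between 11.8% and 35.0%.

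In cDC1 the members were higher than in macrophages in the test over samples. Mki67 was between 1.22 and 5.62 UMIs per 10000 in the cDC1 of the 7 samples with enough cells (median 1.65) and between 0.090 and 1.41 in their macrophages (median 0.910), and it was higher in cDC1 in 7 of 7. In edgeR's quasi-likelihood test, paired by sample, its log2 fold change was 1.56 (SE 0.34, Benjamini-Hochberg adjusted p = 0.00163). Of 20 members with counts enough to test, 16 were higher in cDC1 and none lower, where 19.6% of all 4532 genes tested were higher. Counts in a single gate can admit a gene to the test. All 11 tested mitosis genes were higher, and 5 of 9 S-phase genes. Ube2c, the ubiquitin-conjugating enzyme of the anaphase complex, ran from 0.282 to 2.75 in cDC1 (median 0.864) and from 0.043 to 0.546 in macrophages (median 0.251), which the fit put at 1.86 on the log2 scale (SE 0.37, adjusted p = 0.000802). Hells, a chromatin remodeller of replicating DNA, was higher by 1.64 (SE 0.37, adjusted p = 0.00242) in 6 of 7 samples.

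Pcna did not follow them, with a median of 1.24 in cDC1 and 1.20 in macrophages. Among further genes 8 of 11 tested G2 and mitosis genes were higher in cDC1, among them Cks1b, a Cdk subunit, at 1.92 (SE 0.36, adjusted p = 0.000538), and the inhibitor Cdkn1a (p21) was lower at -0.93 (SE 0.28, adjusted p = 0.0159). The cDC1 had more UMIs per cell, with a median over earlier samples of 3563.25 against 2257 in macrophages. At 1000 UMIs per cell the cycling share was still higher in cDC1 in 4 of 4 earlier and 3 of 3 later samples. Without the earlier Lactation sample, a check chosen after seeing the data, 11 of 20 tested members were higher, and in the earlier library alone 5 of 8. With 2-UMI gates, which left 5 samples, 5 of 15 tested members were called higher.

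B cells had lower levels of nearly all members that could be tested against T cells without Itgae or Cd8b1. Top2a was between 0 and 2.07 UMIs per 10000 in the B cells of 11 samples (median 0.133) and between 0.496 and 3.01 in their T cells (median 1.57), and was lower in B cells in 11 of 11. Nusap1, which bundles spindle microtubules, had a median of 0.055 in B cells and 0.429 in T cells. The log2 fold changes in edgeR's quasi-likelihood test were -2.57 for Top2a (SE 0.20, Benjamini-Hochberg adjusted p = 2.17e-10) and -2.84 for Nusap1 (SE 0.21, adjusted p = 1.2e-10). Of the 44 members 21 had counts enough to test, and 19 of these were lower in B cells and none higher. Of all 6509 genes tested 23.7% were lower. The count filter can admit a gene on the T cells alone, and a member so admitted could hardly be called other than lower. The fitted differences of S-phase genes were smaller. Pcna fell by 0.41 (SE 0.11, adjusted p = 0.0026), from a T cell median of 1.56 to 0.991, and Mcm5, a helicase subunit, by 0.57 (SE 0.16, adjusted p = 0.00531), whereas Pclaf fell by 2.13 (SE 0.19, adjusted p = 2.8e-09). The median over tested S-phase genes was -0.77 and that over tested mitosis genes -2.45.

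B cells differed from T cells in G1 control genes as well. Ccnd2 had a median of 0.791 in B cells and 6.27 in T cells, and the groups did not overlap (log2 fold change -2.89, SE 0.14, adjusted p = 5.08e-14 in the same edgeR test). Myc, a driver of growth, was higher in B cells in 11 of 11 samples by 1.71 (SE 0.11, adjusted p = 7.08e-12), with medians of 1.28 and 0.459. Cdt1, which loads the helicase before S phase, was the only further S-phase gene called higher, at 0.90 (SE 0.15, adjusted p = 3.72e-05), against 5 of 12 called lower. Cycling cells in the B gate carried less of the B cell marker list than the gate as a whole, 8.87 against 33.7 UMIs per 10000 in the earlier library and 13.2 against 39.9 in the later, with milk protein genes at 1071 in the later ones. Whether other cells contributed to these few cells was not tested.

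Plasma cells were compared with B cells in 6 samples. Mki67 was between 0.219 and 1.65 UMIs per 10000 in plasma cells (median 1.03) and between 0 and 2.71 in B cells (median 0.292), and was higher in plasma cells in 4 of 6. Its log2 fold change was 2.76 (SE 0.49, adjusted p = 0.000223, edgeR's quasi-likelihood test with Benjamini-Hochberg adjustment). Pclaf at 2.37 (SE 0.56, adjusted p = 0.00238), Top2a at 1.98 (SE 0.48, adjusted p = 0.0028) and Stmn1 at 1.28 (SE 0.44, adjusted p = 0.0216) were also called higher. Cenpa was called lower at -1.28 (SE 0.32, adjusted p = 0.00315), with medians of 0.112 and 0.788 and no overlap. Thus 4 of 11 tested members were higher and 1 lower, where 28.2% of the 4327 genes tested were higher and 27.5% lower.

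The plasma cell result depends on scaling. Without TMM scaling, which sets the bulk of genes equal between gates, the median of all genes was -1.53, 1 member was called higher and 7 lower, and Stmn1 was at -0.20. Relative to total UMIs, Stmn1 was higher in plasma cells in 2 of 6 samples and Mki67 in 4 of 6. Plasma cells had 6958.75 UMIs per cell against 882.5 in B cells as medians over earlier samples, and at 1000 UMIs per cell the cycling shares were 2.54% and 0 as medians.

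Macrophages had lower levels of some members than T cells without Itgae or Cd8b1. Mcm6 was between 0.172 and 0.502 UMIs per 10000 in macrophages (median 0.277) and between 0.386 and 0.891 in those T cells (median 0.702), and was lower in macrophages in 11 of 11 samples. In edgeR's quasi-likelihood test its log2 fold change was -0.90 (SE 0.17, Benjamini-Hochberg adjusted p = 0.000182). Rrm2 was at -1.14 (SE 0.28, adjusted p = 0.00193), and Mcm4, Mcm2, Mcm7 and Hells were called lower too, between -0.72 and -0.48. Of 14 tested S-phase genes 6 were lower, and of 20 tested mitosis genes 1, the spindle motor Kif11 at -1.04 (SE 0.34, adjusted p = 0.0132), where 32.0% of all 7143 genes were lower. The 7 members called make up a smaller share of the 34 tested than that background. The median estimates were -0.46 for tested S-phase and -0.42 for tested mitosis genes, and the difference between the 2 groups was not tested.

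Mki67 itself was not separated between these gates, with medians of 0.930 and 1.53 and a fitted log2 difference of -0.59 (SE 0.38; edgeR's adjusted p = 0.183). The D-type cyclins of G1 differed in opposite directions. Ccnd1 was between 0.720 and 3.13 in macrophages and between 0.018 and 0.478 in T cells (log2 fold change 3.39, SE 0.21, adjusted p = 1.01e-10), and Ccnd2 had medians of 0.611 and 6.27 (-3.13, SE 0.14, adjusted p = 3.47e-12). Cdkn1a was higher in macrophages in 11 of 11 samples by 1.78 (SE 0.14, adjusted p = 4.62e-09). Without TMM scaling, under which the median of all genes was -0.20, 14 members were called lower, and in the earlier library alone 2.

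CD8 T cells had slightly higher levels of the members than T cells without Itgae or Cd8b1, but no member passed. Mki67 was between 0.752 and 4.18 UMIs per 10000 in CD8 T cells (median 1.72) and between 0.735 and 2.63 in the others (median 1.53), and was higher in 7 of 11 samples. The log2 fold change was 0.38 (SE 0.18, Benjamini-Hochberg adjusted p = 0.233 in edgeR's quasi-likelihood test). All 37 tested members had positive estimates, with a median of 0.33 beside 0.01 for all genes, 11 had an unadjusted p under 0.05, and 0 were called by edgeR or DESeq2, where 9.39% of 6198 genes were called. In the earlier library alone 14 of 33 tested members were called higher, and in the later library alone 0 of 39. The cycling share was higher in CD8 T cells in 4 of 4 earlier samples (medians 12.5% and 4.16%) and in 3 of 7 later ones (5.26% and 5.86%), and at 1000 UMIs per cell in 3 of 4 and 4 of 7. The summed member level was higher in 3 of 4 earlier and 5 of 7 later samples, and the mitosis level in 3 of 4 and 6 of 7.

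Of genes outside the 44, Racgap1, a cytokinesis factor, was higher in CD8 T cells at 0.62 (SE 0.14, adjusted p = 0.00415) in 10 of 11 samples, as were Cdt1, Rpa2 and Smc4. Btg2, an antiproliferative gene, was lower at -0.48 (SE 0.08, adjusted p = 0.000202).

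In T cells with Itgae the cycling share differed widely between samples. It was 0.41% of 244 cells in earlier Gestation, 9.33% of 300 in Lactation and 14.1% of 262 in Nulliparous. In the later library it was 3.03% of 165 cells in Balb/c, 3.59% of 167 in GF, 10.6% of 180 in Gestation, 12.5% of 72 in Involution, 4.26% of 94 in Lactation and 10.5% of 57 in Regression. Earlier Gestation, Balb/c, GF and later Lactation thus lay low, and the other 5 samples high. Over 9 samples, 0 of 36 tested members were called against T cells without Itgae or Cd8b1 by edgeR's quasi-likelihood test or DESeq2, and 1 had an unadjusted p under 0.05, where 17.3% of 6750 genes were called. Of 8 tested inhibitors 4 were lower. Klf2, a transcription factor of quiescent and recirculating lymphocytes, had a median of 0.779 in T cells with Itgae and 3.15 in the others, lower in 9 of 9 samples (log2 fold change -1.74, SE 0.15, Benjamini-Hochberg adjusted p = 2.71e-07), and Cdkn1a was lower by -1.05 (SE 0.20, adjusted p = 0.000775).

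Among Ncr1-gated cells without Cd3e, those with Itgae had lower levels of several S-phase genes than those without, and no mitosis gene was called. Mcm2 was between 0.220 and 0.518 UMIs per 10000 in the cells with Itgae of 6 samples (median 0.281) and between 0.451 and 0.987 in those without (median 0.646), lower in 6 of 6. Its log2 fold change was -1.10 (SE 0.21, Benjamini-Hochberg adjusted p = 0.000528) in edgeR's quasi-likelihood test. Pcna, with medians of 1.20 and 2.02, was lower at -0.72 (SE 0.15, adjusted p = 0.0017), and Mcm7 at -0.68 (SE 0.16, adjusted p = 0.00412). Hells, Mcm3 and Mcm5 were also called, so that 6 of 13 tested S-phase genes and 0 of 15 tested mitosis genes were lower, where 6.28% of 5859 genes were lower.

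Mki67 had medians of 1.30 with Itgae and 1.37 without, and ranged from 0.113 to 5.33 in the cells with Itgae. The call of S-phase genes was not stable: 2 members were called lower by DESeq2 and 1 without the sample block. The libraries gave opposite calls. In the earlier library alone 7 members were called higher and 0 lower, and in the later alone 0 higher and 6 lower. With 2-UMI gates 7 were called lower, and without the earlier Lactation sample 5. Ccnd3 (-0.65, SE 0.11, adjusted p = 0.000133 in edgeR's test) and Ccnd2 (-0.55, SE 0.11, adjusted p = 0.000737) were lower in 6 of 6 samples, as was Klf2 at -2.61 (SE 0.20, adjusted p = 1.68e-10).

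The stage names shared by both libraries allowed Lactation to be compared with Gestation, 2 samples against 2 with the library as a block, and the 2 libraries went opposite ways. In Cd3e-gated cells the summed level of the 44 genes was 11.6 UMIs per 10000 in earlier Gestation and 30.7 in earlier Lactation, but 26.2 in later Gestation and 14.9 in later Lactation. In Ncr1-gated cells it was 9.47 and 53.4 in the earlier and 21.0 and 14.2 in the later library. In macrophages it was 10.4 and 4.60 in the earlier and 15.6 and 28.2 in the later library. Lactation was therefore higher than Gestation in Cd3e-gated and Ncr1-gated cells of the earlier library and lower in those of the later one. Macrophages had the reverse signs. Within the earlier Cd3e gate, CD8 T cells differed little, at 40.8 in Gestation and 42.1 in Lactation. T cells without Itgae or Cd8b1 were at 8.81 and 30.5 there. In cells that met no gate Lactation was higher in both, at 19.6 against 6.92 and 20.5 against 7.06. These differences between libraries were not tested.

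**Figure D4:**
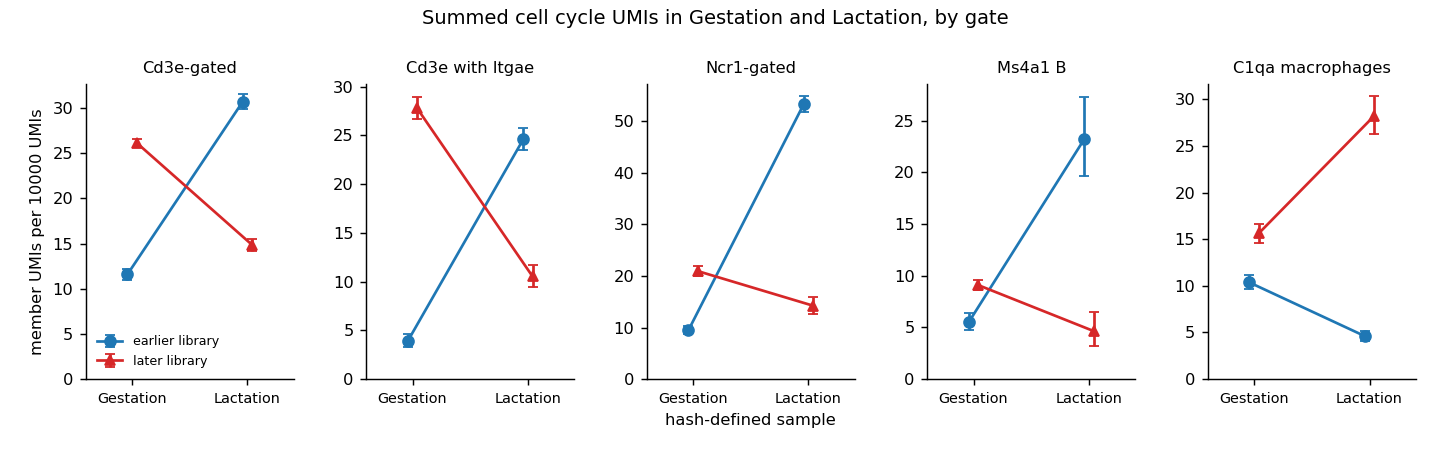
Summed UMIs of the 44 genes per 10000 UMIs in Gestation and Lactation of each library, in 5 panels by gate; bars are exact Poisson 95% intervals, which cover counting error only. Lines of the 2 libraries cross in every panel except that of macrophages, where they diverge. In B cells the Lactation points rest on 44 cells in the earlier and 28 in the later library.

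Over all cells, 43 of 44 members had positive estimates for Lactation against Gestation, with a median log2 fold change of 0.88 beside 0.00 for all genes. None was called by edgeR's quasi-likelihood test or DESeq2 and 19 had an unadjusted p under 0.05, where 0.481% of 13108 genes were called. Mki67 was 0.737 UMIs per 10000 in earlier Gestation, 2.10 in earlier Lactation, 1.37 in later Gestation and 1.70 in later Lactation (log2 fold change 0.89, SE 0.28, Benjamini-Hochberg adjusted p = 0.437). Both Lactation samples were above both Gestation samples. Pcna gave no such separation, at 0.755, 1.21, 1.72 and 1.46. Within the earlier library 44 of 44 members were higher in Lactation, and within the later library 17 of 44, all of them mitosis genes: 0 of 14 S-phase genes were higher there. The median log2 difference of S-phase genes was 1.09 in the earlier and -0.43 in the later library, and that of mitosis genes 1.77 and 0.05.

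In Cd3e-gated cells the opposition was complete across genes. All 44 members were higher in Lactation in the earlier library and all 44 lower in the later, with median log2 differences of 1.56 and -0.86. Stmn1 was 0.962 and 3.86 in earlier Gestation and Lactation and 2.47 and 1.13 in the later pair. Top2a was 0.719, 2.57, 2.26 and 1.35 in the same order. Over the pooled samples 0 of 44 members were called by edgeR's quasi-likelihood test or DESeq2 and 0 had an unadjusted p under 0.05, where 0.0% of 9221 genes were called (318 with an unadjusted p under 0.05, and 3 called by DESeq2).

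The Ncr1-gated cells gave 15 called members of 39 tested, all higher in Lactation, where 0.307% of 7808 genes were called higher. Cenpf, a kinetochore protein, was 0.056 UMIs per 10000 in earlier Gestation, 2.11 in earlier Lactation, 0.531 in later Gestation and 0.403 in later Lactation. Its fitted log2 fold change was 2.18 (SE 0.39, adjusted p = 6.56e-05 in edgeR's quasi-likelihood test with Benjamini-Hochberg adjustment), although the later pair differed by -0.46. Birc5, survivin, was 0.113, 1.88, 0.520 and 0.314, with a fitted change of 1.84 (SE 0.39, adjusted p = 0.00205) and -0.76 in the later library. Cdc20, the activator of the anaphase complex, was 0.014, 0.411, 0.079 and 0.179 and moved the same way in both libraries, by 3.44 and 0.85 (fitted 2.69, SE 0.64, adjusted p = 0.0154). Of the 15 called, 15 were higher in Lactation within the earlier library and 5 within the later, so the other 10 went against their call there.

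These calls rested on the earlier library. Mki67 was 0.663, 4.68, 1.74 and 0.717 in the 4 Ncr1-gated samples and was not called (log2 fold change 1.06, SE 0.32, adjusted p = 0.143). The fit had 1 residual degree of freedom and an infinite prior, so each gene took the spread shared over genes. No member was called by DESeq2, without the library block, with doublet calls kept, with cells assigned by their highest tag or with 2-UMI gates. With 1 sample left out the block had to be dropped as well, and the lone sample of its stage was assumed to vary like the other stage. Such fits called 0 members without earlier Gestation or earlier Lactation, 24 without later Gestation and 3 without later Lactation. The later Lactation sample held 60 Ncr1-gated cells, 3 of them cycling. Earlier Lactation cells were deeper than those of earlier Gestation, with medians of 2198 and 1312 UMIs, and at 1000 UMIs per cell the cycling shares were 12.8% of 351 cells and 0.995% of 402. Of further G2 and mitosis genes 3 of 22 tested were called higher, Prc1, Cks1b and Tubb4b, and 0 of 19 further S-phase genes.

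In macrophages no member was called for stage in edgeR's quasi-likelihood test or DESeq2 (0 of 33 tested, 2 with an unadjusted p under 0.05), where 0.249% of 6816 genes were called. Mki67 was 0.766 UMIs per 10000 in earlier Gestation, 0.090 in earlier Lactation, 0.954 in later Gestation and 3.10 in later Lactation. Of 21 tested mitosis genes 1 was higher in Lactation within the earlier library and 19 within the later, and the later Lactation macrophages numbered 50. In B cells, of which Lactation had 44 and 28, 3 members could be tested and 0 were called (1 with an unadjusted p under 0.05, and 0 by DESeq2), where 0.607% of 3130 genes were called.

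The balance between the 2 programs was read as the ratio of S-phase UMIs to mitosis UMIs. It was taken over all cells of a sample or gate, and cells that were not cycling also carried S-phase UMIs. Over all cells it was lowest in the Lactation samples, 0.499 in the earlier and 0.467 in the later library, and ranged from 0.581 to 0.776 in the other earlier samples and from 0.660 to 0.892 in the other later ones. Over all cells, Lactation thus had more mitosis UMIs per S-phase UMI than any other name in both libraries. Single gates did not all share this. The S-phase and mitosis levels of Lactation over Gestation were 1.87 and 3.22 in earlier and 0.624 and 0.535 in later Cd3e-gated cells. In macrophages they were 0.716 and 0.264 in the earlier and 1.07 and 2.19 in the later library. The levels behind the ratios differed between libraries. Earlier Gestation had 3.79 S-phase and 4.89 mitosis UMIs per 10000 and earlier Lactation 8.22 and 16.5, so both levels were lower in the sample with the higher ratio. Later Gestation had 7.82 and 11.8 and later Lactation 6.07 and 13.0, so there the S-phase level was higher in the sample with the higher ratio. Without Mki67, Top2a and Stmn1 the ratio was again lowest in the Lactation samples, at 0.854 and 0.772.

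**Figure D5:**
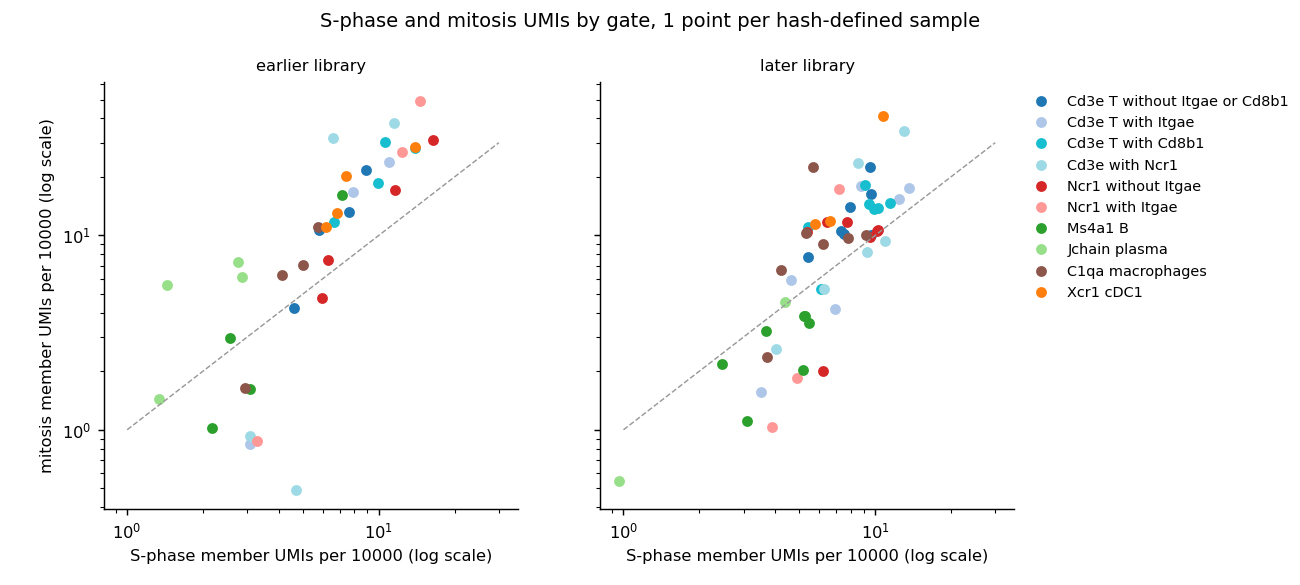
S-phase UMIs against mitosis UMIs, both per 10000 UMIs on log axes, for each gate and sample with at least 20 cells, by library; the dashed line marks equal levels. B cells lie on the S-phase side in 9 of 11 samples, and cDC1 on the mitosis side in 7 of 7.

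By lineage, the ratio of B cells was above that of T cells without Itgae or Cd8b1 in 3 of 4 earlier samples (medians 1.38 and 0.561) and 7 of 7 later ones (1.37 and 0.690). The cDC1 ratio lay below that of macrophages in 3 of 4 earlier and 3 of 3 later samples, with medians of 0.503 and 0.685 in the earlier library. Among cycling cells alone, pooled over samples and without Mki67, Top2a and Stmn1, these differences did not all hold. In the earlier library the ratio was 0.595 in cDC1 and 0.598 in macrophages, and in the later 0.567 and 0.726. For B cells and those T cells it was 0.242, from 3 cycling B cells, and 0.477 in the earlier library. The later values were 1.21 and 0.635.

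The Itgae gates fell into separate ranges across samples. In T cells with Itgae the ratio was 3.65 in earlier Gestation, 2.25 in Balb/c and 1.67 in GF, and between 0.459 and 0.810 in the other 6 samples. In Ncr1-gated cells with Itgae it was 3.75 in earlier Gestation, 3.75 in Balb/c and 2.64 in GF, against 0.297 in earlier Lactation, 0.459 in Nulliparous and 0.414 in later Gestation. The same 3 samples stood high in both gates. Few cycling cells lay behind the Ncr1 ratios: 1 in earlier Gestation, 3 in Balb/c and 1 in GF. The other samples had 31 in earlier Lactation, 8 in Nulliparous and 4 in later Gestation. In earlier Gestation, Balb/c and GF the mitosis level of the Ncr1-gated cells with Itgae was 0.879, 1.04 and 1.85 UMIs per 10000. Their S-phase genes were at 3.30, 3.89 and 4.88, and in earlier Lactation the mitosis and S-phase levels were 49.0 and 14.5. The high ratios thus went with low mitosis levels, with S-phase UMIs still present.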

How the data were processed

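CD45+ mammary gland cells had been profiled with 10x 3' v3.1 gene expression and feature barcode libraries, per the labels. The deposited values are raw counts of UMIs per gene and barcode, and counts of hash tags. Cell Ranger 6.1.0 and mm10 are named per the submitters' processing notes, while a matrix header of the earlier library names Cell Ranger 4.

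Cells with at least 500 UMIs, 300 genes and at most 10% mitochondrial UMIs were kept, 21604 and 21177. Tags were assigned with HTODemux (Seurat 5.3.0, quantile 0.99), which gave 74.0% and 70.7% of cells a single tag, and doublets called by Scrublet (scanpy 1.11.5, expected rate 0.08) were removed. Gates required 1 UMI of the named gene (Jchain 10, C1qa 2). Cells in more than 1 class were set aside, and sums needed 20 cells. Summed counts were tested with edgeR 4.0.16 (quasi-likelihood, TMM, Benjamini-Hochberg over all genes tested, threshold 0.05), with library or sample as a block, and DESeq2 1.42.0 as an alternative. Genes were filtered by counts with filterByExpr, which can admit a gene on its counts in a single group. Each SE was derived from the fold change and the F statistic. HT2 entered the gate comparisons only. Shares have exact binomial and levels exact Poisson 95% intervals, and a share of 0 is given the limit of 3 counts. Scripts were tested on simulated data. The members and lists, the gates and the named genes (key members, and genes called with the largest changes) were chosen with earlier results of these data known. Alternatives covered filters, scaling, gates, tags, doublets, depth and left-out samples.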

Additional observations from a re-analysis of the deposited data

Results flagged for a closer look

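The ratio of the summed level of the 44 genes in Lactation to that in Gestation differed in direction between the libraries, with 1 sample per name in each, so the difference was not tested. It was 2.65 in the earlier and 0.568 in the later library in Cd3e-gated cells, and 6.27 and 0.379 in T cells with Itgae. In Ncr1-gated cells it was 5.64 and 0.679, and in macrophages 0.444 and 1.81.

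Cells outside the comparisons, with no tag or more than 1, also contained cycling cells. In the earlier library 4.20% of 2669 cells with no tag and 9.49% of 1949 cells with more than 1 tag were cycling, and in the later library 4.21% of 2116 and 9.89% of 2994. Cells with more than 1 tag were deeper, with medians of 2817 and 5248.5 UMIs against 1357 and 2811 with 1 tag. Their summed member levels were 17.5 and 16.0 UMIs per 10000, against 15.5 in both libraries with 1 tag. Among earlier plasma cells with no tag the share was 5.20% of 1153 (95% exact interval 3.99 to 6.65), against 11.5% of 260 plasma cells with 1 tag (7.92 to 16.1).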

How the results depend on the processing

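The samples share library names and no replicate numbers beyond them. Without the replicate block (the library term), 0 members were called in each of the 5 stage comparisons, against 15 for Ncr1-gated cells with it. Those 15 became 0 under DESeq2, highest-tag assignment, kept doublets and 2-UMI gates, and 0 to 24 when 1 sample was left out, where the block had to be dropped too. B cell stage calls were 0 to 4 in such fits. With no low-count filter the members called were 23 for stage over all cells, 3 for Itgae T cells, 7 for CD8 T cells, 42 for B against T cells, 21 for macrophages, 32 for cDC1 and 27 for plasma cells. Without TMM they were 14 for macrophages and 8 for plasma cells, where Stmn1 reversed to -0.20. Genes called higher and lower then changed from 2232 and 2284 to 1830 and 2953 (macrophages), from 286 and 296 to 199 and 468 (CD8 T cells) and from 1222 and 1189 to 283 and 3518 (plasma cells). With 2-UMI gates they were 18 for macrophages and 5 for cDC1, and by highest tag 2 for CD8 T cells and 3 for Ncr1-gated cells with Itgae, which had 2 under DESeq2 and 1 without the sample block. The earlier library alone gave 14 for CD8 T cells, 12 for B cells, 2 for macrophages and 5 for cDC1, and the later alone 1 for Itgae T cells; plasma cells could not be fitted there with 2 samples. Leaving out 1 sample together with the block gave Ncr1 stage estimates between -0.85 and 2.11 for Mki67, -0.63 and 2.65 for Top2a, -0.16 and 3.39 for Birc5 and -0.02 (-0.0169) and 2.19 for Stmn1.

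Over all cells the earlier difference in cycling share, Lactation minus Gestation, was 7.78 points, and 10.9 at a threshold of 1 UMI, 5.46 by highest tag, 4.61 at 1000 and 2.82 at 500 UMIs per cell. The later one was 1.33, and 3.82 at a threshold of 1 UMI, -0.00816 by highest tag and -0.533 at 500 UMIs. For later Ncr1-gated cells it was -0.702, and reversed to 1.49 by highest tag. The earlier difference in member level of 16.0 was 9.81 by highest tag, 15.0 with doublets, 14.0 without Stmn1 and 13.2 without Mki67 and Top2a. The earlier difference in ratio of -0.277 was -0.222 in cells of at least 1000 UMIs and -0.484 without Mki67, Top2a and Stmn1, and the later one of -0.193 was -0.138 by highest tag and -0.334 without those genes. Causes were not tested. Leaving out milk-rich cells, HT2 or earlier Lactation was chosen after seeing the data. The number of cells limits small gates: later Lactation had 783 cells in all.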

Other observations

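Cycling cells differed in make-up between samples. CD8 T cells were 28.3% of the 198 cycling cells of later Gestation and 17.1% of all its cells. Ncr1-gated cells with Itgae were 12.6% of the 246 cycling cells of earlier Lactation and 4.75% of all its cells. Macrophages were 20.9% of the cycling cells of Balb/c and 24.8% of those of later HT2. Cells that met no gate were 31.6% of cycling cells in the earlier and 16.9% in the later library.

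Cells with at least 5 S-phase UMIs and no UMI of Mki67 or Top2a were unevenly spread over gates. In the later library they were 59.1% of 22 such S-phase cells among Ncr1-gated cells with Itgae, 48.6% of 142 among macrophages and 31.3% of 131 among CD8 T cells. In earlier plasma cells they were 1 of 18, or 5.56%. Both cutoffs are raw UMI counts not matched for depth, which differed between gates, and the spread was not tested.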
